A study of Sus scrofa with 24 samples.

Results

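Sirtuins, AMP-activated protein kinase (AMPK) and FOXO transcription factors were examined in peripheral blood mononuclear cells (PBMNCs) of pigs, as candidate targets of resveratrol. Every probe set whose gene symbol was SIRT or FOXO followed by a number, or began with PRKAA, PRKAB or PRKAG, was taken, whatever its signal. This gave 17 of the 23999 probe sets that were not Affymetrix controls, for 13 genes. There were 4 sirtuin probe sets (SIRT2, SIRT3, SIRT5 and SIRT6), 9 AMPK probe sets for all 7 subunit genes, and 4 FOXO probe sets (FOXO1 and FOXO3). The pig RefSeq gene list holds 18 genes of these families, and SIRT1, SIRT4, SIRT7, FOXO4 and FOXO6 were not analysed here. PRKAA1, PRKAG1, FOXO1 and FOXO3 each had a pair of probe sets, which are lettered by mean signal, with the brighter as a. The brighter sets were PRKAA1-a (Ssc.26892.1.S1_at), PRKAG1-a (Ssc.4201.1.A1_at), FOXO1-a (Ssc.73.1.S1_at) and FOXO3-a (Ssc.2488.1.A1_at). The dimmer ones were PRKAA1-b (Ssc.26892.2.A1_a_at), PRKAG1-b (Ssc.26338.1.S1_at), FOXO1-b (Ssc.73.2.A1_at) and FOXO3-b (Ssc.2488.2.S1_at).

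Blood cells of 24 pigs, 2 females and 2 males in each of 6 diet groups, were isolated by density gradient, and each animal's RNA was measured on its own Affymetrix porcine array. Every group was kept on its diet for 4 months. In 4 groups this was an atherogenic diet, made with cholic acid (1%), beef tallow (5.5%) and oil of coconut (10%). The AD-GE-RES animals received a grape extract enriched in resveratrol on this diet, the AD-GE animals a grape extract, the AD-RES animals resveratrol, and the AD animals no supplement. The CT-GE-RES animals ate standard commercial pig chow with the enriched extract, and the CT animals ate that chow alone. Per 70 kg of body weight the extract dose was 1 g, and resveratrol was given at 18 mg alone or within the enriched extract. A gradient fraction mixes lymphocytes, monocytes and other cells, so fewer cells of a type and less RNA per cell cannot be told apart in any value below.

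Sirtuins remove acetyl and other acyl groups from proteins and consume NAD in doing so, which ties their activity to the metabolic state of the cell. AMPK is a trimer of a catalytic α subunit, a scaffolding β subunit and an AMP-binding γ subunit, and it restrains energy-consuming synthesis when ATP runs low. FOXO factors drive genes of quiescence, stress resistance and, in lymphocytes, homing and survival, and they are held in the cytoplasm when AKT or SGK1 phosphorylates them. Resveratrol has been proposed to act through SIRT1 and AMPK, which are controlled largely at the protein level.

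The deposited values were linear intensities, and all values here are log2 intensities. Signals of different probe sets differ in brightness for reasons other than transcript number, so levels are compared only within a probe set. Leukocyte markers (PTPRC, CORO1A, LCP1, CD53 and LAPTM5) averaged 10.5 to 11.4 over the arrays, and 2 of 6 hepatocyte markers passed the filter on low signals, at 3.87 to 4.59. Array medians lay between 38.6 and 41.2 on the linear scale. RNA quality or labelling varied much more: the log2 ratio of 3' to 5' control probe sets ran from 1.37 to 4.39, with 13 arrays under 2.5 and 11 over it. CT replicate 4 had the highest ratio and the lowest T cell marker mean, so the main values that rest on it are also given without it.

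**Figure D1:**
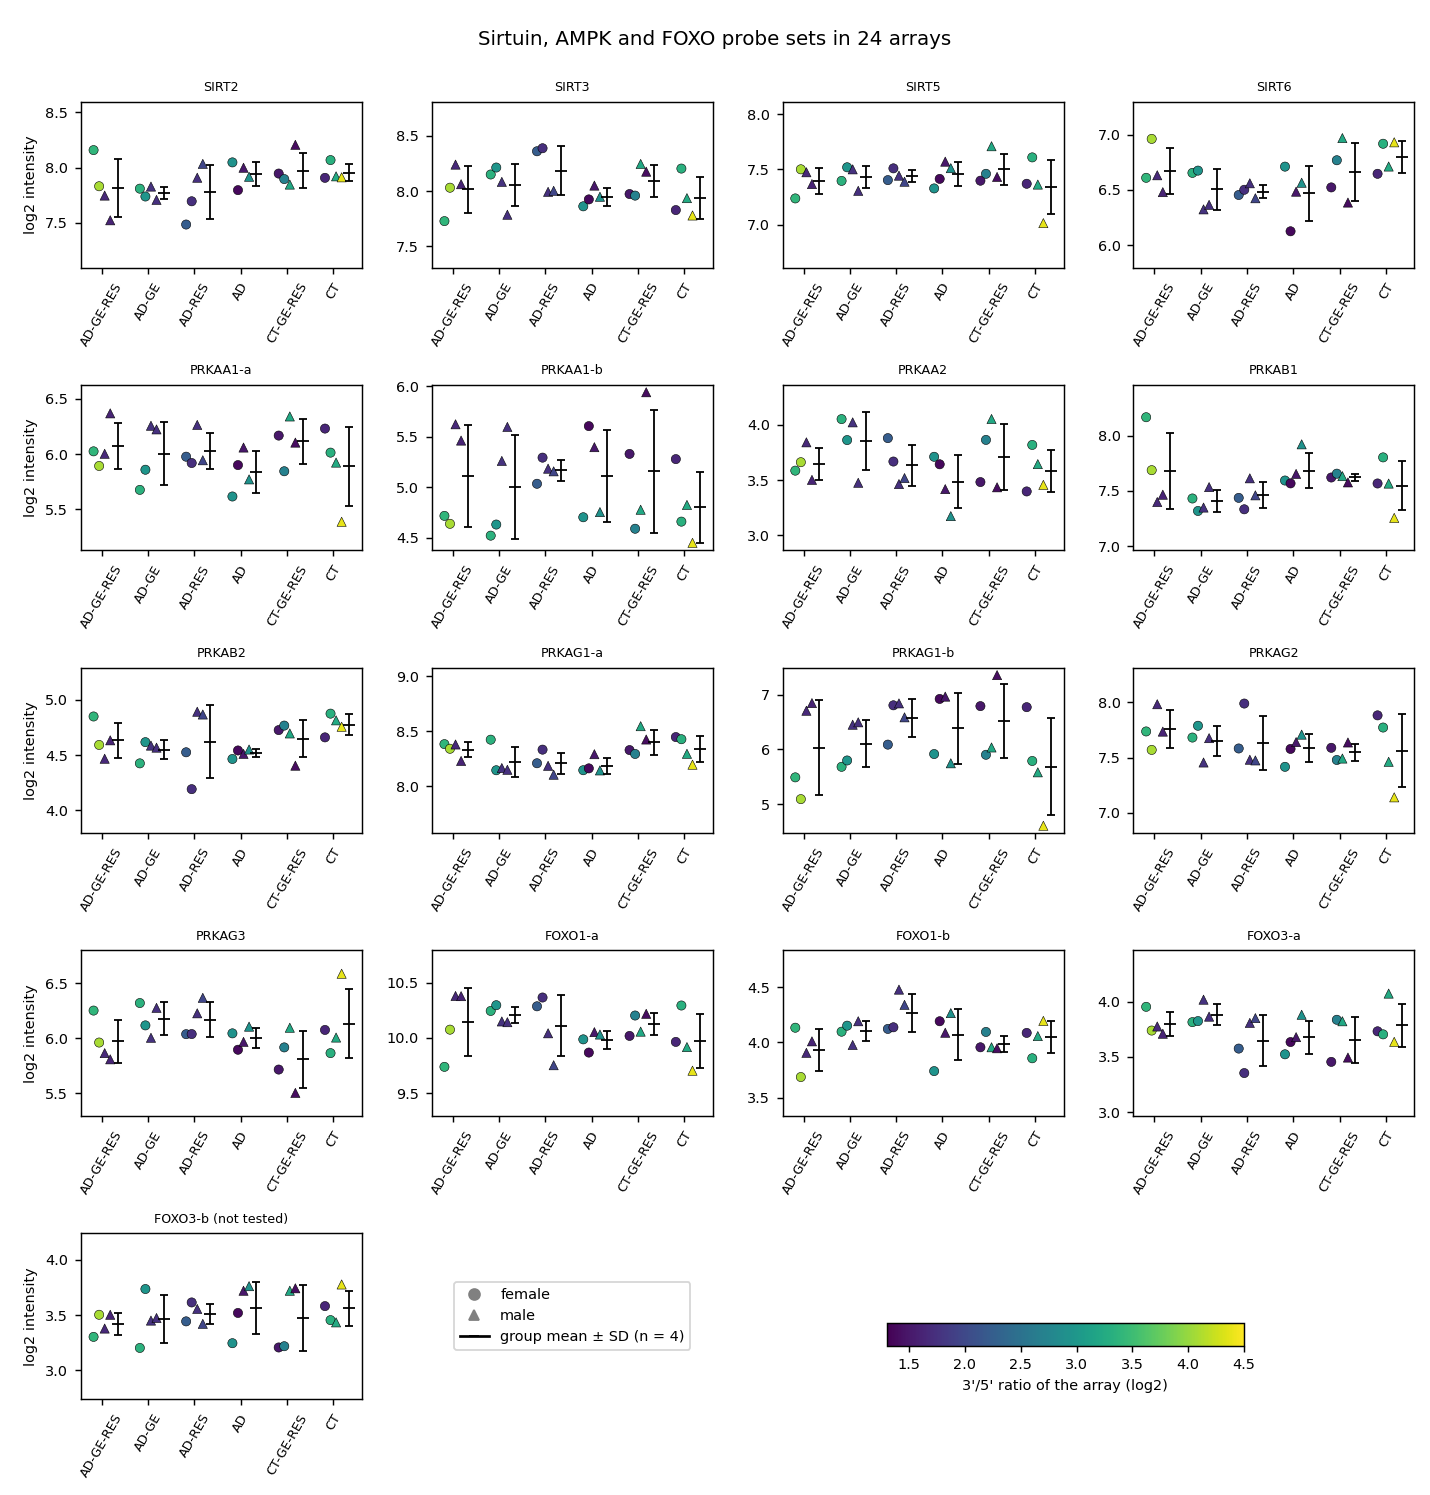
Log2 intensity (vertical axis) of each of the 17 probe sets in every array, by diet group (horizontal axis); circles are females, triangles males, the bar is the group mean ± SD (n = 4), and colour is the log2 3'/5' ratio of the array. PRKAG1-b spans 4.61 to 7.35, against 8.11 to 8.55 for PRKAG1-a.

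Of the 17 probe sets, 16 lay above the filter, which removed the dimmest 25% by mean over all arrays (cut at 3.57). FOXO3-b, with a mean of 3.50, was below it and was not tested. PRKAA2 (3.65) and FOXO3-a (3.74) were just above it, near the dim end of the tested range. FOXO1-b (4.07) and PRKAB2 (4.63) were also dim, beside 4.58 for TTR, a hepatocyte marker listed as absent from blood. Among sirtuins, the AD-RES animals had the highest group mean of SIRT3, the main mitochondrial deacetylase, at 8.19 ± 0.22 (SD, n = 4), and the CT animals had the lowest at 7.94 ± 0.19. SIRT2, a largely cytoplasmic deacetylase, ran from 7.77 ± 0.06 in AD-GE to 7.97 ± 0.16 in CT-GE-RES. SIRT5, which removes succinyl and malonyl groups in mitochondria, ran from 7.34 ± 0.25 in CT to 7.499 ± 0.14 in CT-GE-RES. The chromatin-bound SIRT6 ran from 6.47 ± 0.25 in AD to 6.80 ± 0.14 in CT.

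AMPK probe sets differed in how widely they varied. The residual SD within groups and sexes was 0.68 for PRKAG1-b and 0.43 for PRKAA1-b, against 0.10 to 0.24 for the other 7 AMPK probe sets. The catalytic subunit PRKAA1 (α1, the usual α of blood cells) ran, on its probe set PRKAA1-a, from 5.84 ± 0.19 in AD to 6.11 ± 0.21 in CT-GE-RES. PRKAA1-b ran from 4.80 ± 0.35 in CT to 5.17 ± 0.11 in AD-RES. PRKAG3, the γ3 subunit best known from skeletal muscle, ran from 5.81 ± 0.25 in CT-GE-RES to 6.18 ± 0.15 in AD-GE. The scaffold PRKAB1 (β1) ran from 7.41 ± 0.10 in AD-GE to 7.68 ± 0.16 in AD, and PRKAB2 (β2) from 4.52 ± 0.04 in AD to 4.78 ± 0.09 in CT. PRKAG2 (γ2) ran from 7.55 ± 0.08 in CT-GE-RES to 7.76 ± 0.17 in AD-GE-RES. Of the FOXO factors, FOXO1-a ran from 9.97 ± 0.24 in CT to 10.21 ± 0.07 in AD-GE. A moderated F test over the 6 groups (limma) called none of the 16 tested (0 of 17999 over all probe sets, 0%). At an unadjusted p under 0.05 it also picked none of the 16, beside 9.16% of all probe sets. Neighbouring groups in these orders were compared only where they form one of the diet comparisons below.

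The first comparison asked what the atherogenic diet did. Between AD and CT animals none of the 16 probe sets was called by limma (adjusted p of 0.757 or more), where 0 of 17999 probe sets were called in all (0%). SIRT6 was the member with the smallest p and the only one with an unadjusted p under 0.05, beside 6.38% of all probe sets. SIRT6 read 6.71, 6.13, 6.48 and 6.57 in the AD animals (females first here and below), against 6.65, 6.92, 6.71 and 6.93 in the CT animals. AD replicate 1 overlapped the CT values. The difference was -0.33 (SE 0.14, limma adjusted p = 0.757), and -0.20 without AD replicate 2.

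PRKAB2 was the only member whose groups did not overlap, as they did not for 2.74% of all probe sets: it read 4.47, 4.54, 4.51 and 4.55 in AD animals, against 4.66, 4.88, 4.82 and 4.76 in CT animals. Its difference was -0.26 (SE 0.13, limma adjusted p = 0.757), on a dim signal. PRKAG1 (γ1) gave opposite signs on its 2 probe sets. PRKAG1-a read 8.15, 8.16, 8.29 and 8.15 in AD animals, against 8.45, 8.43, 8.30 and 8.20 in CT animals, a difference of -0.15 (SE 0.09, limma adjusted p = 0.771). PRKAG1-b read 5.92, 6.92, 6.96 and 5.75 in AD animals, against 6.77, 5.79, 5.58 and 4.61 in CT animals, a difference of 0.70 (SE 0.44, limma adjusted p = 0.771). The lowest of these values, 4.61, was CT replicate 4, and the second difference was 0.27 without it and 1.13 without CT replicate 1. PRKAA1-b read 4.70, 5.60, 5.40 and 4.75 in AD animals, against 5.28, 4.66, 4.83 and 4.45 in CT animals (difference 0.31, SE 0.29, limma adjusted p = 0.816). Single arrays moved this value too, to 0.09 without AD replicate 2 and to 0.53 without CT replicate 1. The other 11 differences lay between -0.13 and 0.14.

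The 3'/5' ratio averaged 2.19 ± 0.87 in the AD arrays and 3.15 ± 1.13 in the CT arrays (SD, n = 4 each). With the ratio as a term in the model, the SIRT6 difference was -0.17 (SE 0.10), that of PRKAG1-b was 0.02 (SE 0.14) and that of PRKAA1-b was -0.10 (SE 0.13). The difference of PRKAG1-a was -0.16 (SE 0.10) in that model. The part of RNA quality in the differences without this term was not otherwise tested.

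Grape extract, the enriched extract and resveratrol were each set against the atherogenic diet alone, to ask what each supplement changed on it. These 3 comparisons share the 4 AD animals, so a value that is high or low in AD enters all of them. limma called none of the 16 members in any of them, where 0 of 17999 probe sets were called in each (0%).

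For AD-GE against AD, 1 member had an unadjusted p under 0.05, beside 6.09% of all probe sets. This was PRKAA2, the α2 catalytic subunit best known from muscle, which read 4.05, 3.86, 4.02 and 3.48 in AD-GE animals, against 3.71, 3.64, 3.42 and 3.17 in AD animals. The groups overlapped, and the difference was 0.37 (SE 0.15, limma adjusted p = 0.804). PRKAB1 and FOXO1-a were the 2 members with no overlap, as seen in 4.72% of all probe sets. PRKAB1 read 7.43, 7.32, 7.35 and 7.53 in AD-GE animals, against 7.59, 7.57, 7.65 and 7.92 in AD animals (difference -0.28, SE 0.14, limma adjusted p = 0.820, and -0.18 without AD replicate 4). FOXO1-a read 10.24, 10.30, 10.15 and 10.14 in AD-GE animals, against 9.99, 9.87, 10.05 and 10.03 in AD animals (difference 0.22, SE 0.15, limma adjusted p = 0.863). All 4 AD-GE animals were thus below the AD animals for PRKAB1 and above them for FOXO1-a, by small steps. FOXO3-a read 3.81, 3.82, 4.02 and 3.86 in AD-GE animals, against 3.52, 3.63, 3.68 and 3.88 in AD animals (difference 0.20, SE 0.12). SIRT2 read 7.81, 7.74, 7.83 and 7.71 in AD-GE animals, against 8.05, 7.80, 7.999 and 7.92 in AD animals (difference -0.17, SE 0.13). With the T cell, B cell and monocyte marker means in the model the SIRT2 difference was 0.048.

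For AD-GE-RES against AD, no member had an unadjusted p under 0.05 (2.40% of all probe sets) and none lacked overlap (1.26%). PRKAG1-a had the smallest p and read 8.38, 8.34, 8.38 and 8.23 in AD-GE-RES animals, against 8.15, 8.16, 8.29 and 8.15 in AD animals. Only AD replicate 3 overlapped, and the difference was 0.15 (SE 0.09). PRKAA1-a read 6.02, 5.89, 6.002 and 6.37 in AD-GE-RES animals, against 5.62, 5.90, 6.06 and 5.77 in AD animals (difference 0.24, SE 0.17). SIRT6 read 6.61, 6.96, 6.63 and 6.48 in AD-GE-RES animals, against 6.71, 6.13, 6.48 and 6.57 in AD animals (difference 0.20, SE 0.14, and 0.07 without AD replicate 2). PRKAG2 differed by 0.17 (SE 0.14, and 0.07 without AD-GE-RES replicate 3), with 7.74, 7.57, 7.98 and 7.73 in AD-GE-RES animals, against 7.42, 7.58, 7.64 and 7.71 in AD animals. FOXO1-b differed by -0.14 (SE 0.12, -0.07 without AD-GE-RES replicate 2 and -0.24 without AD replicate 1), with 4.13, 3.69, 3.91 and 4.01 in AD-GE-RES animals, against 3.74, 4.19, 4.09 and 4.27 in AD animals. The groups overlapped for each of these. The 3'/5' ratio averaged 2.69 ± 1.24 in AD-GE-RES arrays and 2.19 ± 0.87 in AD arrays. With the ratio in the model, PRKAA1-a differed by 0.32 (SE 0.13, limma unadjusted p = 0.027, adjusted p = 0.9995). PRKAG2 then differed by 0.23 (SE 0.13), SIRT6 by 0.11 (SE 0.10), PRKAG1-a by 0.15 (SE 0.09) and FOXO1-b by -0.13 (SE 0.12). PRKAA1-b differed by 0.21 (SE 0.13) with the ratio and by -0.005 without it.

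For AD-RES against AD, the comparison closest to the proposed action of resveratrol, no member had an unadjusted p under 0.05 (4.45% of all probe sets) and none lacked overlap (2.81%). SIRT3 came first, with 8.36, 8.39, 7.99 and 8.002 in AD-RES animals, against 7.86, 7.92, 8.05 and 7.95 in AD animals. The AD-RES females were above every AD animal and the AD-RES males were among them. The difference was 0.24 (SE 0.13, limma adjusted p = 0.980), made up of 0.48 in females and -0.002 in males. This gap between the sexes was not called (limma unadjusted p = 0.035, adjusted p = 0.364). In that test 12.2% of all probe sets had an unadjusted p under 0.05 and 0 were called. SIRT2 was lower in both AD-RES females than in every AD animal, with 7.48, 7.70, 7.91 and 8.03 in AD-RES animals, against 8.05, 7.80, 7.999 and 7.92 in AD animals (difference -0.16, SE 0.13, -0.06 without AD-RES replicate 1, and 0.049 with the 3 marker means in the model). Among AMPK subunits, PRKAB1 read 7.44, 7.33, 7.61 and 7.46 in AD-RES animals, against 7.59, 7.57, 7.65 and 7.92 in AD animals (difference -0.22, SE 0.14, and -0.13 without AD replicate 4). PRKAA1-a read 5.98, 5.92, 6.26 and 5.94 in AD-RES animals, against 5.62, 5.90, 6.06 and 5.77 in AD animals (difference 0.19, SE 0.17). FOXO1-b read 4.12, 4.14, 4.48 and 4.34 in AD-RES animals, against 3.74, 4.19, 4.09 and 4.27 in AD animals (difference 0.20, SE 0.12, and 0.10 without AD replicate 1). The other 11 differences lay between -0.03 and 0.19.

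Averaging the resveratrol groups (AD-RES and AD-GE-RES) against those without it (AD and AD-GE) gave the narrowest intervals of the diet contrasts. No member was called (0% of all probe sets) and none had an unadjusted p under 0.05 (3.56%). The smallest p belonged to PRKAA1-a, with a difference of 0.13 (SE 0.12). SIRT3 differed by 0.10 (SE 0.09). The 95% interval lay within 1.5-fold either way for 15 of 16 members (90.3% of all probe sets), and within 2-fold for all 16 (98.4%). The median over the members was 0.05, beside 0.0005 over all probe sets.

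On chow, the enriched extract was set against chow alone. This comparison shares the CT animals with AD against CT, so a value that is high or low in CT enters both. No member was called (0 of 17999 probe sets in all, 0%), and none lacked overlap (4.03% of all probe sets). PRKAG3 was the 1 member with an unadjusted p under 0.05, beside 6.80% of all probe sets. It read 5.72, 5.92, 6.10 and 5.51 in CT-GE-RES animals, against 6.08, 5.87, 6.01 and 6.58 in CT animals. The highest value was CT replicate 4: the difference was -0.32 (SE 0.15, limma adjusted p = 0.700) with it and -0.17 without it. PRKAG1-b read 6.79, 5.90, 6.04 and 7.35 in CT-GE-RES animals, against 6.77, 5.79, 5.58 and 4.61 in CT animals, a difference of 0.83 (SE 0.44), of 0.41 without CT replicate 4 and of 1.26 without CT replicate 1. The difference was 1.60 in males (1.11 without CT replicate 4) and 0.07 in females.

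In these 2 groups PRKAA1-b was, like PRKAG1-b, highest in CT-GE-RES replicate 4 and lowest in CT replicate 4. PRKAA1-a was also lowest in CT replicate 4 but highest in CT-GE-RES replicate 3. PRKAA1-b read 5.33, 4.59, 4.78 and 5.94 in CT-GE-RES animals, against 5.28, 4.66, 4.83 and 4.45 in CT animals (difference 0.36, SE 0.29, 0.18 without CT replicate 4 and 0.13 without CT-GE-RES replicate 4). PRKAA1-a read 6.17, 5.84, 6.34 and 6.10 in CT-GE-RES animals, against 6.23, 6.01, 5.92 and 5.39 in CT animals (difference 0.23, SE 0.17, and 0.03 without CT replicate 4). SIRT5 read 7.40, 7.46, 7.71 and 7.43 in CT-GE-RES animals, against 7.37, 7.61, 7.36 and 7.01 in CT animals (difference 0.16, SE 0.11, and 0.05 without CT replicate 4). CT replicate 4 was the lowest array for all 3 of these probe sets. In females alone the differences were -0.0096 for PRKAA1-b, -0.12 for PRKAA1-a and -0.060 for SIRT5. With the 3 marker means in the model they were -0.11 for PRKAA1-b and -0.037 for PRKAA1-a. The 3'/5' ratio averaged 2.20 ± 0.89 in the CT-GE-RES arrays and 3.15 ± 1.13 in the CT arrays (SD, n = 4 each). With the ratio in the model, the differences were 0.17 (SE 0.14) for PRKAG1-b, -0.05 (SE 0.13) for PRKAA1-b and -0.19 (SE 0.13) for PRKAG3.

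Whether the enriched extract acted differently on the 2 diets was tested as an interaction. No member was called (0%) and none had an unadjusted p under 0.05 (3.12% of all probe sets). Females and males likewise gave no member called, where 48 of 17999 probe sets were (0.267%), and none with an unadjusted p under 0.05 (10.3%). The difference between the sexes in the response to diet was largest in significance for PRKAG2 in AD against CT, at -0.33 in females and 0.37 in males, or 0.21 in males without CT replicate 4 (adjusted p = 0.179, limma, 12 diet and sex groups). In that contrast 14.9% of all probe sets had an unadjusted p under 0.05 and 21 were called, with CT replicate 4 as 1 of the 2 CT males.

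**Figure D2:**
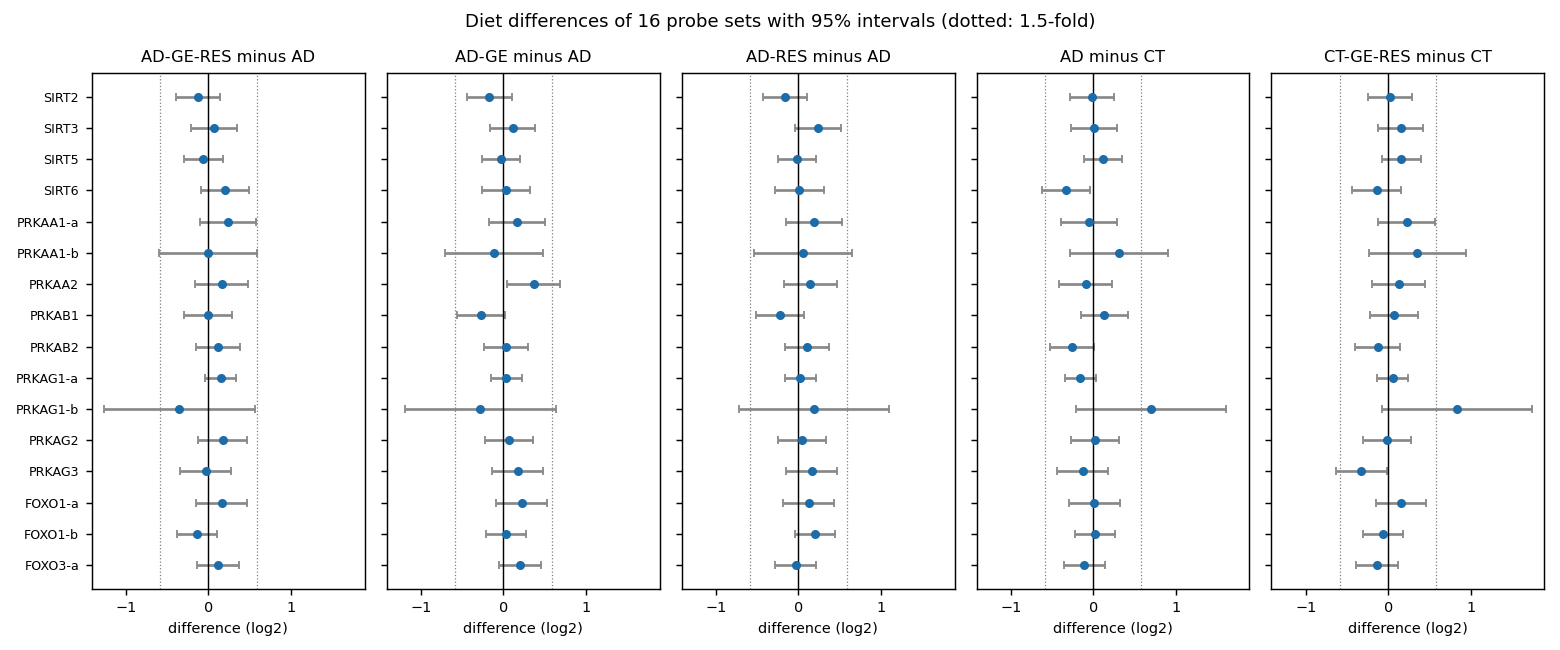
Log2 difference (horizontal axis) of the 16 tested probe sets (vertical axis) in the 5 comparisons, with 95% intervals from limma; dotted lines mark 1.5-fold. Most intervals lie inside the dotted lines, and those of PRKAG1-b are the widest (-0.21 to 1.61 for AD minus CT).

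The intervals bound what these animals could show. The 95% interval stayed within 1.5-fold in either direction for 13 members in AD against CT, in AD-GE against AD and in CT-GE-RES against CT. It did so for 14 members in AD-GE-RES against AD and in AD-RES against AD. Within 2-fold it held 15 of 16 in each comparison, and PRKAG1-b was the exception every time. Over all probe sets the share within 1.5-fold was 69.2% to 75.7%. The median differences of the members were -0.001 in AD against CT, 0.03 in AD-GE against AD, 0.09 in AD-GE-RES against AD, 0.08 in AD-RES against AD and 0.07 in CT-GE-RES against CT. Over all probe sets these medians were 0.002, 0.007, 0.009, -0.002 and 0.009 in the same order.

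For part of the AMPK family, variation between animals of one group went with the 3'/5' ratio. A slope on the ratio, fitted within diet groups and sexes on all 24 arrays, was called for 5 of 16 members (limma, adjusted p under 0.05), beside 11.5% of all probe sets. PRKAG1-b had a slope of -0.70 log2 per log2 unit of the ratio (SE 0.05, limma adjusted p = 3.59e-09). It read 6.09 to 7.35, with a median of 6.79, in the 13 arrays with a ratio under 2.5. In the 11 arrays over 2.5 it read 4.61 to 6.04, with a median of 5.75. These ranges restate the slope and are no further test. The other PRKAG1 probe set, PRKAG1-a, had a slope of -0.006 (SE 0.03), with a median of 8.23 in the arrays under 2.5 and of 8.30 in those over it.

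PRKAA1-b had the next steepest slope, -0.43 (SE 0.05, limma adjusted p = 1.24e-06). It read 5.03 to 5.94 in the arrays under 2.5 and 4.45 to 4.83 in those over it, which again restates the slope. The values over 2.5 were dim, beside 4.58 for the hepatocyte marker TTR. PRKAA1-a sloped less, at -0.17 (SE 0.05, limma adjusted p = 0.0277). SIRT6 and PRKAG3 ran upward. SIRT6 had a slope of 0.17 (SE 0.04, limma adjusted p = 0.00283) and PRKAG3 a slope of 0.15 (SE 0.05, limma adjusted p = 0.0382). The calls of PRKAG1-b, PRKAA1-b and SIRT6 held with any 1 array left out. That of PRKAG3 was lost for 8 of the 24 arrays (limma adjusted p of 0.0522 to 0.166, slopes of 0.11 to 0.15) and with array weights (0.132, slope 0.11). PRKAA1-a lost its call for 3 of the 24 arrays (limma adjusted p of 0.0558 to 0.161). Without CT replicate 4 the slopes were -0.11 for PRKAA1-a and 0.11 for PRKAG3.

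**Figure D3:**
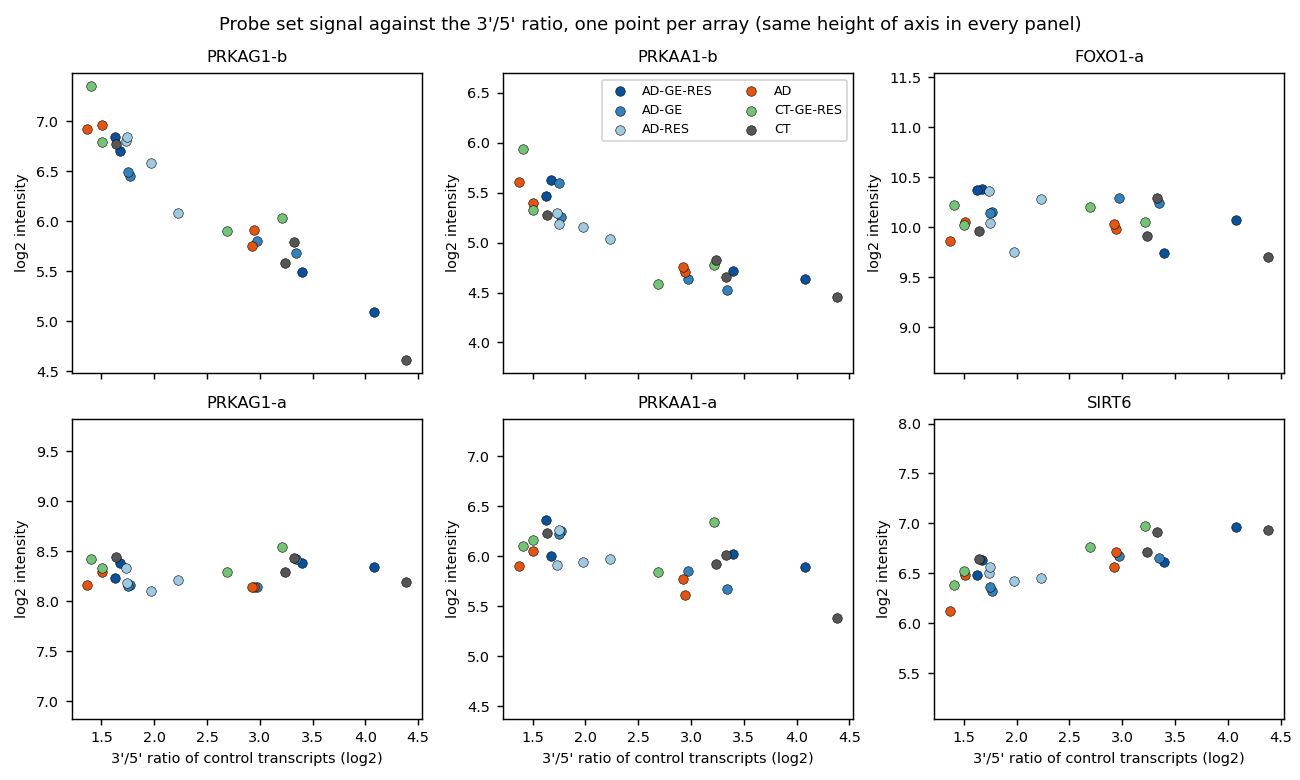
Log2 intensity (vertical axes, all of the same height) of 6 probe sets against the log2 3'/5' ratio of the array (horizontal axis), 1 point per array, coloured by diet group. PRKAG1-b falls from 7.35 to 4.61 over the ratio range while PRKAG1-a stays between 8.11 and 8.55.

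The within-array difference between the 2 probe sets of a gene was set against the ratio for the 4 genes with a pair, as 4 relations. For PRKAG1 (PRKAG1-b minus PRKAG1-a) Pearson's r was -0.979 and Spearman's rho -0.937 over 24 arrays, each with a permutation p of 1.00e-05, the smallest that 100000 permutations can give (adjusted 4.00e-05). Pearson's r was -0.967 without the 2 arrays farthest from the median ratio. It was -0.800 within the 13 arrays under 2.5 and -0.965 within the 11 over it. For PRKAA1 (PRKAA1-b minus PRKAA1-a) r was -0.688 and rho -0.756 (adjusted permutation p of 3.20e-04 and 1.20e-04), and -0.779 without the 2 farthest arrays. This relation did not hold within both sets of arrays, with r of -0.545 under 2.5 and 0.128 over 2.5. The FOXO1 pair gave r of 0.050 (adjusted permutation p = 0.817) and rho of 0.055 (adjusted 0.800). The FOXO3 pair, with a member below the filter, gave r of -0.181 (adjusted permutation p = 0.530) and rho of -0.301 (adjusted 0.204).

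Cell makeup was described with the mean of 9 T cell markers, which include CD3D, CD3E, LCK and IL7R, each centred on its mean over arrays. Slopes on this mean were added after the data had been seen. Limma called 6 of 16 members, beside 18.2% of all probe sets: PRKAG1-b (1.51, SE 0.27), both PRKAA1 probe sets (0.86, SE 0.20, on PRKAA1-b and 0.43, SE 0.13, on PRKAA1-a), FOXO1-a (0.42, SE 0.11), PRKAG2 (0.39, SE 0.11) and PRKAG3 (-0.48, SE 0.10). Without CT replicate 4 the slopes of PRKAG2 (0.33) and PRKAA1-a (0.23) were not called, while PRKAB1 (-0.498) and FOXO3-a (-0.41) were. PRKAA1-a was also not called without CT replicate 1 (0.35) or AD-GE-RES replicate 4 (0.41), nor FOXO1-a without AD-GE-RES replicate 1 (0.33). With array weights PRKAG2 (0.40) and PRKAA1-a (0.44) were not called (limma adjusted p of 0.0655 and 0.0726). CT replicate 4 had the lowest T cell mean (-1.16) as well as the highest ratio. With the ratio also in the model, 3 members were called, beside 20.1% of all probe sets. FOXO1-a, whose gene encodes a factor that maintains naive T cells, had a slope of 0.71 (SE 0.15, limma adjusted p = 0.00577). The gene's other probe set, the dim FOXO1-b (mean 4.07), had a slope of the opposite sign (-0.43, SE 0.15, limma adjusted p = 0.0504). SIRT3 had a slope of 0.59 (SE 0.16, limma adjusted p = 0.0162) and SIRT5 one of 0.46 (SE 0.14, limma adjusted p = 0.0239). On the T cell mean alone, SIRT3 (0.25) and SIRT5 (0.21) were not called (limma adjusted p of 0.136 and 0.139). In the model with both terms PRKAG1-b sloped by 0.21 (SE 0.20, limma adjusted p = 0.456). PRKAA1-a sloped by 0.21 (SE 0.20, limma adjusted p = 0.444) in that model and PRKAA1-b by -0.035 (SE 0.19). The model with both terms was not refitted with arrays left out. Slopes on the B cell mean (4 markers) and the monocyte mean (9 markers) called no member, beside 3.88% and 5.16% of all probe sets.

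**Figure D4:**
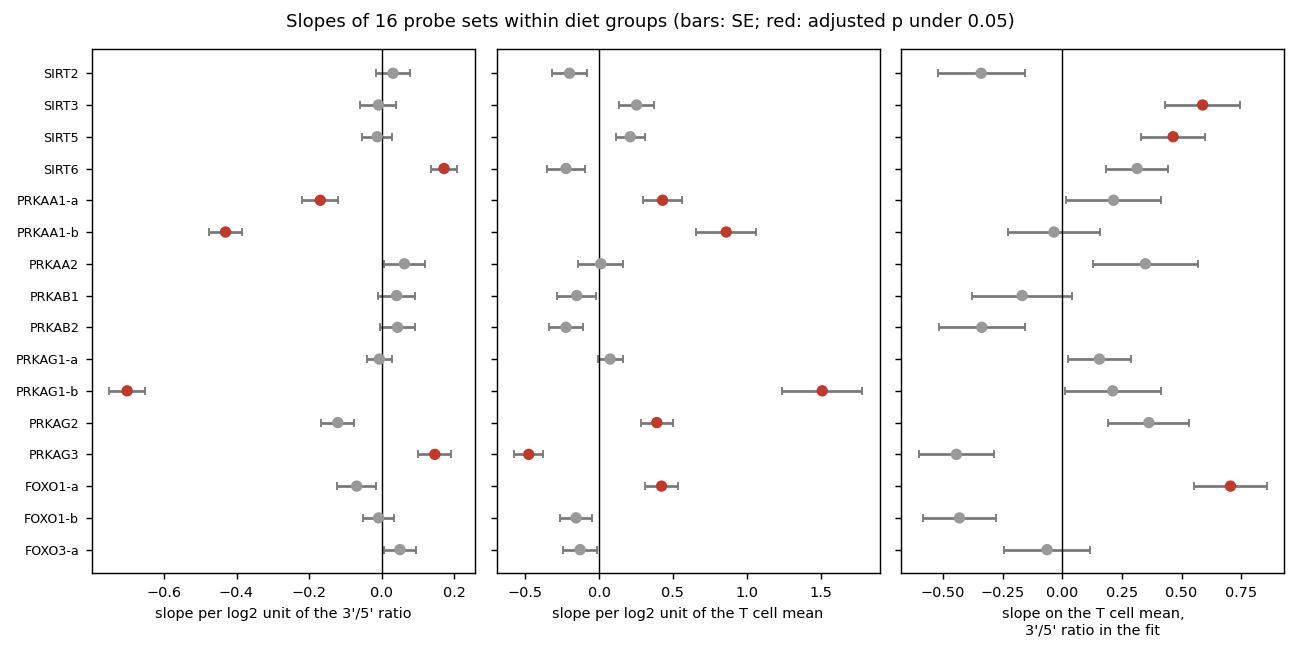
Slope ± SE (horizontal axes) of each of the 16 tested probe sets (vertical axis) on the 3'/5' ratio, on the T cell marker mean, and on that mean with the ratio also in the model; red marks a limma adjusted p under 0.05. The number of red points is 5, 6 and 3 from left to right.

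How the members moved with each other within groups is given as a description, over the residuals of 24 arrays that share the ratio and the cell makeup above. Of 136 pairs, 6 had a residual correlation above 0.6 and 5 below -0.6. The highest, 0.91, joined PRKAA1-b and PRKAG1-b, the 2 probe sets with the steepest slopes on the ratio. The mitochondrial SIRT3 correlated at 0.78 with FOXO1-a and at 0.69 with SIRT5. SIRT6 ran opposite to PRKAA1-b, at -0.83. The 2 probe sets of a gene did not always move together: the values were 0.55 for PRKAA1, 0.23 for PRKAG1, -0.40 for FOXO1 and -0.30 for FOXO3. FOXO1-b and both FOXO3 probe sets were dim. With the ratio taken out as well, the PRKAG1 pair correlated at 0.65 and the PRKAA1 pair at -0.21.

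**Figure D5:**
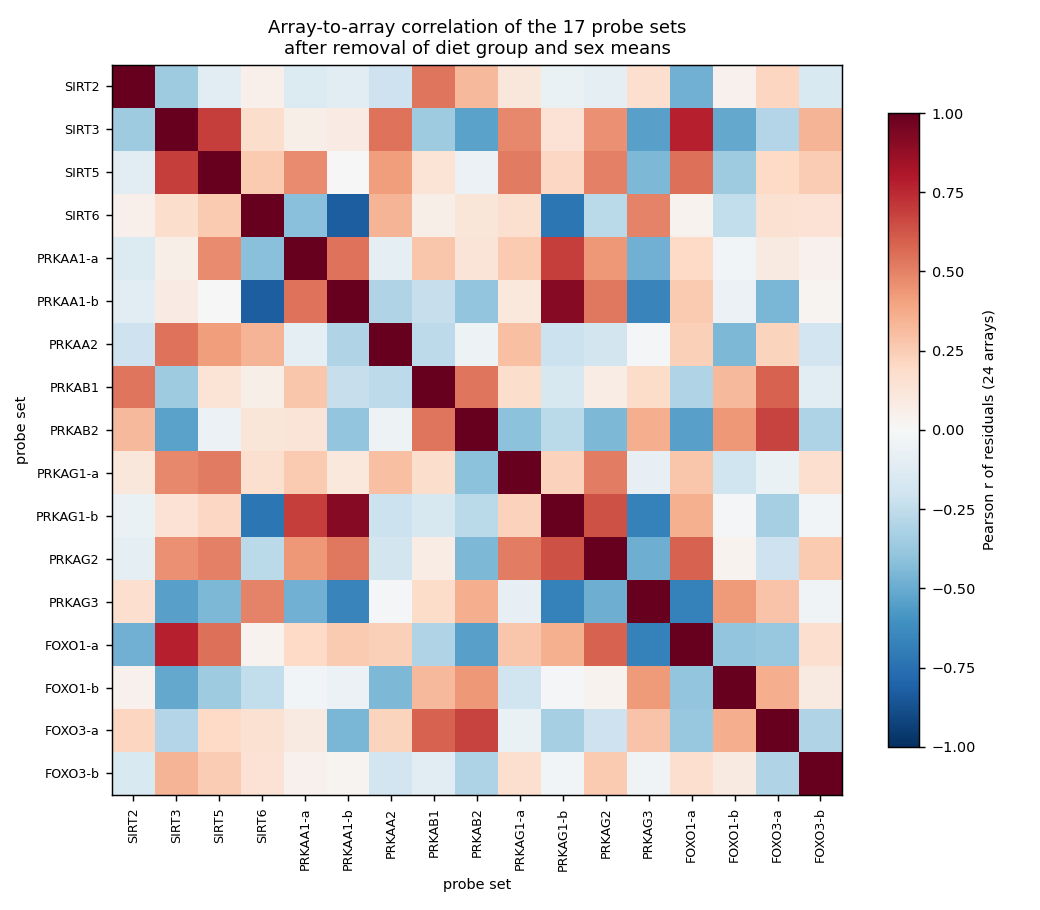
Pearson correlation (colour) of the residuals of 24 arrays after diet group and sex means were removed, for every pair of the 17 probe sets (both axes). The reddest pair off the diagonal is PRKAA1-b with PRKAG1-b (0.91) and the bluest is SIRT6 with PRKAA1-b (-0.83).

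Among 6032 other genes, those whose residuals were most like FOXO1-a were BPTF, ABLIM1 and ZNF395 (0.90, 0.89 and 0.88). Those most like FOXO3-a were KCTD10, SLC25A48 and LOC100524254 (0.71, 0.70 and 0.70). PRKAA1-a was most like KPNA3, CHIC2 and RBM34 (0.85, 0.84 and 0.84), and PRKAG1-a was most like FAM219B, NDRG2 and ACADS (0.81, 0.79 and 0.78). For SIRT3 these were ZNF34, CDC25B and ZNF7 (0.87, 0.84 and 0.83).

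Genes that act on these families or below them were described through 6 lists, each gene by its brightest probe set, beside 6033 genes in all. They held 5 AMPK kinases and partners, 14 AMPK substrates and downstream genes, 11 genes of NAD metabolism, 16 regulators and substrates of sirtuins, 15 regulators of FOXO and 29 FOXO targets. TXNIP stood in 2 of the lists, and IL7R in both the FOXO target list and the T cell markers. Limma called none of these genes, higher or lower, in any of the 5 comparisons (0% of all probe sets).

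For AD against CT, 6 of 29 FOXO targets, 2 of 16 sirtuin regulators and substrates and 1 of 15 FOXO regulators had an unadjusted p under 0.05, beside 6.25% of all genes, and no gene of the other 3 lists had. The FOXO targets were higher in AD for 19 of 29 (median 0.18), and NAD metabolism genes were lower for 10 of 11 (median -0.21), with an all-gene median of -0.01 and 47.6% of genes higher. The T cell mean averaged -0.05 ± 0.20 in AD arrays and -0.41 ± 0.53 in CT arrays (SD, n = 4 each), and -0.16 ± 0.22 in CT arrays without replicate 4, beside the difference in 3'/5' ratio given above. Their part in these shifts was otherwise not tested. Without CT replicate 4, 20 of 29 FOXO targets were higher (median 0.12, 4 with an unadjusted p under 0.05) and 10 of 11 NAD metabolism genes were lower (median -0.20), with 46.5% of genes higher. S1PR1, the receptor that lets lymphocytes leave lymphoid organs, read 11.16, 11.23, 11.67 and 11.99 in AD animals, against 10.92, 10.99, 10.85 and 10.53 in CT animals (difference 0.69, SE 0.15, limma adjusted p = 0.633). The death ligand TNFSF10 read 4.31, 3.44, 3.98 and 4.07 in AD animals, against 6.06, 4.52, 4.79 and 5.17 in CT animals (difference -1.19, SE 0.41, and -0.80 without CT replicate 1). The AD values of TNFSF10 were dim, beside 4.58 for the hepatocyte marker TTR. MAPK9 (JNK2), a kinase of FOXO, differed by -0.41 (SE 0.12), also on a dim signal (4.19 to 4.55 in AD animals). These genes were named for their small p, and the groups did not overlap for any of the 3, as for 2.74% of all probe sets.

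For AD-GE against AD, 4 of 29 FOXO targets, 2 of 11 NAD metabolism genes, 1 of 16 sirtuin regulators and substrates and 1 of 15 FOXO regulators had an unadjusted p under 0.05, beside 6.53% of all genes. SOD2, the mitochondrial superoxide dismutase and a textbook FOXO target, read 9.78, 10.07, 10.32 and 10.48 in AD-GE animals, against 11.31, 11.10, 10.86 and 11.04 in AD animals (difference -0.91, SE 0.20, limma adjusted p = 0.529). SGK1, which phosphorylates FOXO, read 10.71, 11.27, 11.58 and 11.88 in AD-GE animals, against 11.70, 11.83, 12.01 and 11.93 in AD animals (difference -0.51, SE 0.20, and -0.33 without AD-GE replicate 1). KYNU, of the kynurenine route to NAD, differed by -0.56 (SE 0.19), with no overlap between the groups (4.72% of all probe sets). The monocyte marker mean averaged -0.33 ± 0.30 in AD-GE arrays and 0.33 ± 0.21 in AD arrays (9 of 14 markers measured, SD, n = 4 each). The neutrophil mean (7 of 11 markers measured) averaged -0.27 ± 0.52 in AD-GE arrays and 0.46 ± 0.496 in AD arrays. Their part in these values was not tested.

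In AD-RES against AD, 4 of 29 FOXO targets, 2 of 15 FOXO regulators and 1 gene each of both AMPK lists and of NAD metabolism had an unadjusted p under 0.05, beside 5.22% of all genes. SGK1 read 10.83, 10.86, 11.46 and 11.31 in AD-RES animals, against the same AD values, a difference of -0.75 (SE 0.20, limma adjusted p = 0.980) with no overlap (2.81% of all probe sets). IRS1, an adaptor of the insulin receptor, read 4.02, 4.10, 3.75 and 4.34 in AD-RES animals, against 4.39, 4.63, 4.59 and 4.40 in AD animals (difference -0.45, SE 0.13). CD38, an enzyme that breaks down NAD, read 6.19, 6.20, 6.20 and 6.01 in AD-RES animals, against 5.91, 5.99, 5.96 and 4.95 in AD animals (difference 0.45, SE 0.20, and 0.21 without AD replicate 4). PPP2CB, a catalytic subunit of the phosphatase PP2A, differed by 0.26 (SE 0.10). SOD2 differed by -0.63 (SE 0.20) with no overlap, and MAPK9 by 0.33 (SE 0.12) with overlap. The signals of IRS1 and MAPK9 were dim, beside 4.58 for the hepatocyte marker TTR. The monocyte mean averaged -0.17 ± 0.60 in AD-RES arrays and 0.33 ± 0.21 in AD arrays, and the neutrophil mean -0.37 ± 0.78 in AD-RES arrays and 0.46 ± 0.496 in AD arrays (SD, n = 4 each). Their part in these values was not tested. The AD arm of these values is the one used above for AD-GE.

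In AD-GE-RES against AD, MAPK9 was the single list gene with an unadjusted p under 0.05 (difference 0.34, SE 0.12, limma adjusted p = 0.9995), beside 1.76% of all genes. On chow, 1 gene of each list but AMPK kinases and partners had an unadjusted p under 0.05, beside 8.24% of all genes. CD38 read 6.82, 6.61, 6.81 and 6.31 in CT-GE-RES animals, against 5.95, 6.36, 5.95 and 6.08 in CT animals (difference 0.55, SE 0.20, limma adjusted p = 0.700). CTLA4, an inhibitory receptor of T cells, read 5.24, 4.77, 4.25 and 4.06 in CT-GE-RES animals, against 3.78, 3.88, 4.03 and 3.90 in CT animals (difference 0.68, SE 0.19, and 0.47 without CT-GE-RES replicate 1). The CT values of CTLA4 were dim, beside 4.58 for the hepatocyte marker TTR. YWHAH, a 14-3-3 protein of the kind that holds FOXO in the cytoplasm, differed by 0.41 (SE 0.15), with no overlap (4.03% of all probe sets). The T cell mean averaged 0.23 ± 0.16 in CT-GE-RES arrays and -0.41 ± 0.53 in CT arrays (SD, n = 4 each). The neutrophil mean averaged -0.26 ± 0.41 in CT-GE-RES arrays and 0.53 ± 0.75 in CT arrays, and the erythroid mean (4 of 10 markers measured) -0.52 ± 0.78 in CT-GE-RES arrays and 0.36 ± 1.09 in CT arrays. Without CT replicate 4 the CT means were -0.16 for T cell, 0.17 for neutrophil and -0.13 for erythroid markers. Their part in these values was not otherwise tested. NAD metabolism genes were lower in CT-GE-RES for 8 of 11 (median -0.14), where 59.3% of all genes were higher (median 0.04). Without CT replicate 4 the count was also 8 of 11, with a median of -0.08. The CT arm of these values is the one used above for AD against CT.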

How the data were processed

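RNA of 24 pigs was measured on 24 one-colour Affymetrix arrays. The authors deposited 1 linear intensity per probe set and array. The tools named are RMA and GCOS, per the submitters' processing notes, with no version or role in the sources used here. Intensities were taken to log2. The array holds 24123 probe sets, of which 124 are controls. The dimmest 25% of the others by mean were not tested, and 17999 were. Symbols are those of the platform's annotation: 1 symbol for 8540 tested probe sets, several for 168 and none for 9291. No genome build is named, and positions and sequences were not used here.

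Group means of the 6 diets and sex were fitted with limma 3.58.1 in R 4.3.3 to all 24 arrays, with empirical Bayes moderation, two-sided tests and Benjamini-Hochberg adjustment over all 17999 probe sets at 0.05. The 3'/5' ratio is the mean log2 ratio of 3' to 5' control probe sets of 3 transcripts. The fit with the ratio as a term was tested on simulated data, for an AD minus CT difference and a slope on the ratio. The other steps were not simulated. Replicate numbers follow accession order and pair no animals. The limma p-values judge a difference or slope against the residual spread between animals, pooled over the groups. The permutation p-values come from shuffling the 24 arrays without regard to diet group or sex. Precision is limited by the number of arrays.

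All members are named. Each comparison gives values for the 5 members with the smallest p. Of each list the rule names the 2 genes with the smallest p in each comparison, and values are printed for some of those with an unadjusted p under 0.05. The rule also asked for the genes most like SIRT1, which has no value here. The members and the lists were chosen with earlier results of these data known. Alternatives were a filter at 50%, other normalization, no sex term, array weights, the ratio or marker means in the model, each sex alone and each array left out.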

Additional observations from a re-analysis of the deposited data

Results flagged for a closer look

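Within groups of 4 animals, the gap between the highest or lowest animal and its nearest neighbour was compared with the whole range by Dixon's test at the 95% level. Of 102 groups of members tested, 5 passed, where chance gives about 1 in 20 (5.1). Each was a single high animal. SIRT2 read 8.07 in CT replicate 2 and 7.91 to 7.92 in the other CT animals. PRKAA1-a read 6.26 in AD-RES replicate 3 and 5.92 to 5.98 in the other AD-RES animals. PRKAG1-a read 8.29 in AD replicate 3 and 8.15 to 8.16 in the other AD animals, and it read 8.42 in AD-GE replicate 1 and 8.15 to 8.17 in the other AD-GE animals. FOXO1-b read 4.09 in CT-GE-RES replicate 2 and 3.95 to 3.96 in the other CT-GE-RES animals.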

How the results depend on the processing

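In the 5 diet comparisons, none of the 190 alternatives run called a member. These covered the filter, the normalization, sex, array weights, the ratio and marker means in the model, each sex alone, and the arrays left out 1 at a time or, chosen after seeing the data, CT replicate 4 with AD-GE-RES replicate 1. No paired analysis was possible because replicate numbers were given in accession order and each animal belongs to 1 group. Counts over all probe sets did move, from 0. AD against CT called 1 in females alone and 242 in males alone, and CT-GE-RES against CT called 122 in males alone. AD-GE against AD called 1 with array weights. AD-RES against AD called 4 in females alone and 7 in males alone. Each sex alone sets 2 animals against 2. CT replicate 4, with the highest 3'/5' ratio (4.39) and the lowest T cell mean (-1.16), is 1 of the 2 CT males. Its part in the counts of 242 and 122 was not tested.

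Of the member differences, 14 changed sign, none of them called. For AD minus CT, PRKAA1-b became -0.10 with the ratio and -0.082 with the marker means in the model, and PRKAG1-b became -0.0033 with the marker means. For CT-GE-RES minus CT, PRKAA1-b became -0.051 with the ratio, -0.11 with the marker means and -0.0096 in females alone. PRKAA1-a became -0.037 with the marker means and -0.12 in females alone, PRKAG1-b became -0.019 with the marker means, and SIRT5 became -0.060 in females alone. SIRT2 became 0.048 for AD-GE minus AD and 0.049 for AD-RES minus AD with the marker means, and 0.013 for AD-RES minus AD in males alone. SIRT3 became -0.0015 for AD-RES minus AD in males alone. Of the 25 member differences named above, 16 moved by over 1.5 times when some 1 array was left out, and none changed sign. For genes of the 6 lists, leaving out single arrays was added, as were marker means and differences within a sex without CT replicate 4, after the data had been seen. The cause of these changes was not tested.

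Members called on the 3'/5' ratio were 5, and 3 to 6 when 1 array was left out, with 3 without both CT replicate 4 and AD-GE-RES replicate 1. On the T cell mean they were 6, and 5 to 6 with 1 array left out, though not always the same members. With the ratio in the model they were 3. PRKAG1-b then sloped by 0.21, PRKAA1-a by 0.21, PRKAA1-b by -0.035, PRKAG3 by -0.44 and PRKAG2 by 0.36, none of them called. Without both CT replicate 4 and AD-GE-RES replicate 1 the members called on the T cell mean were 2. FOXO1-a (0.38), PRKAG3 (-0.41), PRKAG2 (0.51) and PRKAA1-a (0.44) were then not called. On the B cell mean 1 member was called without the sex term, and on the monocyte mean 1 without the sex term, 1 with array weights and 1 with the ratio in the model, where the models used above called 0. With 4 animals a group, the 95% intervals leave room for changes under 1.5-fold in nearly every member.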
